A study of Mus musculus with 4 samples.

Results

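The genes described here are G protein-coupled receptors outside the glutamate and GABA families, chosen by symbol from a deposited table of 5282 genes. A symbol had to begin with one of a set of receptor names (among them Gpr followed by a digit, Adgr, Adora, Htr, Lpar, S1pr, Sstr and P2ry), P2ry12 was left out, and the mean level over the samples had to be at least 0.5. 49 symbols matched and 48 met the level minimum. The member nearest above the minimum was Gpr151, with a mean level of 0.653, and the gene below it was Gpr179, with a mean level of 0.113. GENCODE M21 holds 195 protein-coding genes whose symbols match, of which 147 had no row and were not analysed here. 47 of the members were protein-coding; Gpr137b-ps is annotated as a pseudogene, and its level may share reads with its parent gene. The name pattern takes in Gpr137, whose product is a lysosomal membrane protein that is not an established receptor.

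RNA was sequenced from corpus callosum, a white matter tract, pooled with cortex, in mice at postnatal day 15. 2 samples came from Pdgfra-creER;SmoM2 mice, called SmoM2 here, and 2 from wild type (WT) mice, and tamoxifen was injected from postnatal day 5 to day 7 in all 4. SmoM2 is an always active Smoothened, the receptor-like protein that passes on the hedgehog signal. The creER recombinase is driven by Pdgfra, which is active in oligodendrocyte precursors and also in fibroblasts, so the active allele is not limited to the oligodendrocyte lineage by its driver. The sources used here do not say if wild type mice carried creER or SmoM2 alone, or if each sample was 1 animal; p-values therefore measure only the spread between these samples, which may be technical.

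G protein-coupled receptors span the membrane with a bundle of helices and, when a ligand binds, activate heterotrimeric G proteins. Gs raises cyclic AMP, Gi lowers it, and Gq acts through phospholipase C and calcium. In the brain these receptors carry the slow signals of monoamines, peptides, adenosine and lipids. Smoothened is itself built like one of them, and protein kinase A, the target of cyclic AMP, restrains the Gli factors that act below it. Gpr161, a receptor of the primary cilium that restrains hedgehog signalling, had no row and was not analysed here.

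The authors listed a gene only if its unadjusted p was at most 0.05 (the largest in the table is 0.049997), so every receptor here was already selected for a difference on these samples. "Rose" and "fell" mark genes whose adjusted p does not exceed 0.05 by the authors' deposited table. As judged from the values, levels are scaled by length and by library; the sources do not say if they are TPM or FPKM. The table holds no read counts, so the depth of each sample is unknown. Smo itself read 7.12 and 5.75 in WT and 10.73 and 10.96 in SmoM2. Some libraries stood apart in genes of adjoining regions. Of 8 olfactory bulb markers 6 had a row, and their summed level was 44.5 and 49.4 in WT and 107.9 and 68.6 in SmoM2, highest in SmoM2 replicate 1; Tbx21 was listed at 0 in WT replicate 2. Of 8 choroid plexus markers 7 had a row, with summed levels of 1224 and 1189 in WT and 77.6 and 631 in SmoM2. Ttr made up most of these sums, at 1202.66 and 1162.48 in WT and 71.24 and 618.04 in SmoM2. Of 11 markers of striatal neurons 4 had a row, with summed levels of 427 and 267 in WT and 360 and 547 in SmoM2. Of 7 markers of excitatory cortical neurons 3 had a row, and all 10 markers of mature oligodendrocytes did. Of 9 meningeal fibroblast markers 8 had a row and all 8 rose, with summed levels of 979 and 350 in WT and 1738 and 1813 in SmoM2. Ptgds made up most of these sums, at 933.18 and 312.88 in WT and 1641.07 and 1727.5 in SmoM2.

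Of the 48 receptors, 13 rose and 6 fell in SmoM2. That is 39.6% of them, against 38.3% of the 5041 listed genes that met the same level minimum, so the receptors were called about as often as other listed genes. The share that rose was 27.1%, against 21.8% of those genes, and the share that fell was 12.5%, against 16.5%. Without regard to the test, 36 receptors had a log2 fold change above 0 and 12 below 0 in the authors' deposited table. Higher were thus 75% of the receptors and 53% of the 5041 genes. The median of the 48 was 0.42, and that of the 5041 genes was 0.23. The levels gave the same direction as the authors' fold change for all 48. With the samples scaled to equal medians, the median limma log2 difference of the 5041 genes went from 0.26 to 0.16 and that of the receptors from 0.45 to 0.34, with no receptor changing direction. The lowest and highest level did not overlap between the groups for 42 receptors, 87.5%, while this held for 84.8% of the 5041 genes. A limma fit to the log2 levels was adjusted over the 57010 tests that the authors' adjusted p implies. No receptor passed and 1 of the 5041 genes did. An unadjusted limma p under 0.05 was found for 31 receptors, 64.6%, and for 54.4% of the 5041 genes. Among the receptors called by the authors' test, 17 had groups that did not overlap, 35.4% of the 48, beside 35% of the 5041 genes.

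**Figure D1:**
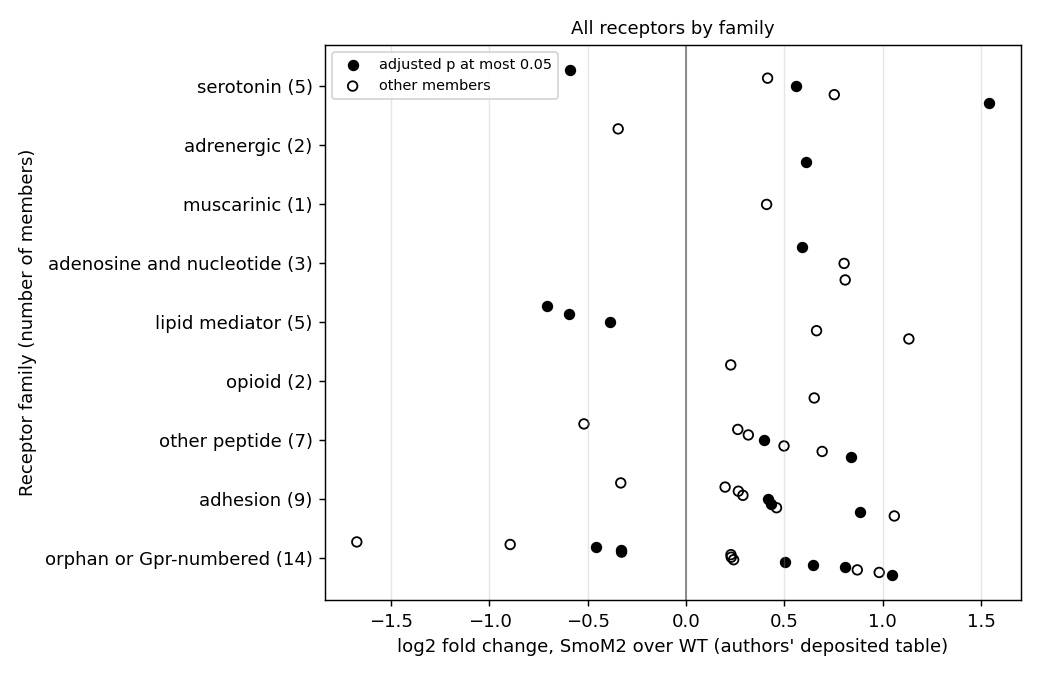
log2 fold change of each of the 48 receptors in the authors' deposited table (horizontal axis, log2, SmoM2 over WT) by receptor family (vertical axis, number of members in brackets). Filled points are the 19 receptors with an adjusted p of at most 0.05 and open points the other 29; in the lipid mediator family the 3 filled points lie below 0 and the 2 open points above it.

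The receptors for lipid mediators were the one family in which more members fell than rose. 5 of 16 were members, and Lpar1, S1pr5 and Cnr1 fell, or 60% called beside 38.3% of listed genes. Lpar1, a receptor for lysophosphatidic acid that oligodendrocytes express, had a level of 11.58 and 10.93 in WT and 8.44 in both SmoM2 samples. S1pr5, a receptor for sphingosine 1-phosphate found in the oligodendrocyte lineage, had a level of 6.79 and 6.68 in WT and 4.32 and 4.37 in SmoM2. For both receptors the SmoM2 samples lay below the WT samples and replicates lay close together. The log2 difference on the log2(level + 1) scale was -0.38 ± 0.14 for Lpar1 and -0.53 ± 0.16 for S1pr5 (SE, limma); with a pseudocount of 5 that of S1pr5 was -0.33. The authors' deposited table has a log2 fold change of -0.59 for Lpar1 (adjusted p = 0.00433) and of -0.71 for S1pr5 (adjusted p = 0.0318). Cnr1, the cannabinoid receptor of axon terminals, had a level of 37.82 and 41.6 in WT and 33.05 and 31.42 in SmoM2. Its groups did not overlap, with a log2 difference of -0.29 ± 0.11 (SE, limma), and the authors' deposited table has 0.0127 as its adjusted p.

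The other lipid receptors, S1pr2 and Lpar2, were near the level minimum and did not pass the test. S1pr2 had a level of 0.56 and 0.42 in WT and 1.05 and 0.89 in SmoM2. Lpar2 had a level of 0.38 and 0.25 in WT and 0.9 and 1.26 in SmoM2. The authors' deposited table has 0.468 and 0.0621 as their adjusted p. Lpar2 is named after its values were seen, as the relative of Lpar1 that was higher where Lpar1 was lower; whether these differences differ from each other was not tested. Gpr37, an orphan receptor of differentiating oligodendrocytes, is also named after its values were seen. It had a level of 12 and 12.79 in WT and 10.51 and 10.93 in SmoM2 (adjusted p = 0.153, authors' deposited table), so it was lower in both SmoM2 samples without passing.

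The enzymes that make the ligands of these receptors were measured too. Enpp2 encodes autotaxin, which makes lysophosphatidic acid and is abundant in oligodendrocytes and in choroid plexus. Its level was 145.49 and 215.29 in WT and 75.24 and 96.07 in SmoM2, so it fell, the authors' deposited table giving -1.18 for its log2 fold change and 6.85e-28 for the adjusted p. Sphk1, a kinase that makes sphingosine 1-phosphate, rose from 1.67 and 0.85 in WT to 3.81 and 3.44 in SmoM2 (adjusted p = 0.000198, authors' deposited table). The value of Sphk1 rests on low levels. Sphk2, named after its values were seen, had a level of 14.03 and 15.82 in WT and 19.06 and 20.07 in SmoM2. It did not pass (adjusted p = 0.119, authors' deposited table). The receptor and the ligand enzyme were thus both lower for Lpar1 with Enpp2, and in opposite directions for S1pr5 with Sphk1. All 10 mature oligodendrocyte markers fell, with summed levels of 6336 and 5949 in WT and 3033 and 3416 in SmoM2 and none listed at 0. The part of the oligodendrocyte markers in the receptor values, and of the choroid plexus markers in the value of Enpp2, was not tested. In bulk RNA fewer cells of a type and less RNA per cell cannot be told apart.

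**Figure D2:**
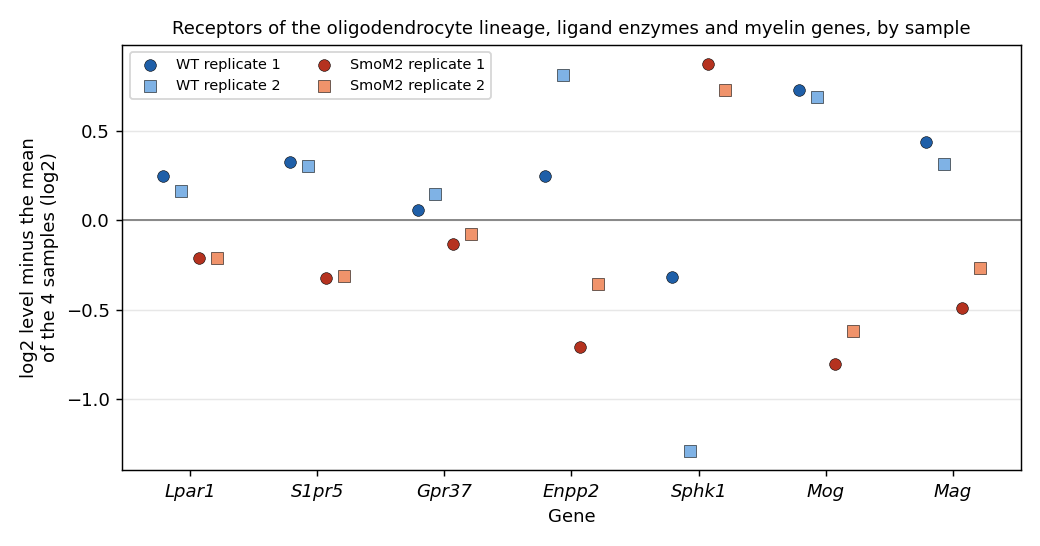
log2 level of each sample minus the mean of the 4 samples (vertical axis, log2) for 3 receptors of the oligodendrocyte lineage, 2 ligand enzymes and 2 myelin genes (horizontal axis); each point is 1 sample. Both SmoM2 samples lie below both WT samples for Lpar1, S1pr5, Gpr37, Enpp2, Mog and Mag, and above them for Sphk1.

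The DNA before the starts of Lpar1, Cnr1 and S1pr5 is shown because these are the receptors of one family that fell together, and because hedgehog signalling acts on promoters through the Gli factors. Each run is the 250 bases before a RefSeq start in GRCm38.p6, 5′ to 3′ on the strand of the gene, and capitals mark the letters ACCACCC, a core of the Gli consensus, or their reverse complement GGGTGGT. Lpar1 is at chr4:58553294-58553543 on the minus strand, Cnr1 at chr4:33924014-33924263 on the plus strand, and S1pr5 at chr9:21248444-21248693 on the minus strand.
Lpar1: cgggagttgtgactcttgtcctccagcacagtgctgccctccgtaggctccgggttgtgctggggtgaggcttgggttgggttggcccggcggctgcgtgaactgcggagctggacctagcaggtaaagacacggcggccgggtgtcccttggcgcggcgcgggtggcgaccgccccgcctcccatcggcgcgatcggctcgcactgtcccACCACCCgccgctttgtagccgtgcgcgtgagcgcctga
Cnr1: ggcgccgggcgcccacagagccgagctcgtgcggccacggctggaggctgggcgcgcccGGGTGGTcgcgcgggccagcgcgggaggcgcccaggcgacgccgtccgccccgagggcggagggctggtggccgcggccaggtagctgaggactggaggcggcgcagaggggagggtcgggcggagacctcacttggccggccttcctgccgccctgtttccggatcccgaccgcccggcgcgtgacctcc
S1pr5: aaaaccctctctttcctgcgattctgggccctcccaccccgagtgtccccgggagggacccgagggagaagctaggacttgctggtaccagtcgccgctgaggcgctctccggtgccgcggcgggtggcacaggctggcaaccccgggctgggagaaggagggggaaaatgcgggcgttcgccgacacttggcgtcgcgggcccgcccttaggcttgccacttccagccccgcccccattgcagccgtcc

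Lpar1 and Cnr1 have 3 such windows each in the RefSeq table, 1 of which holds the core, and S1pr5 has 1, in which these letters are not found. For Lpar1 and Cnr1 the window with the core is the one printed, so it was chosen for holding it. The core begins 39 bases before the start of that window in Lpar1 and 191 bases before it in Cnr1. Another Lpar1 window lies at chr4:58553492-58553741 on the minus strand, and the core lies after the start that belongs to it. The bases after the start of the printed Cnr1 window were not found in a GENCODE M21 transcript of the gene. Of the 48 receptors 35 had a window in the table, with 51 windows in all, and 2 windows held the core on either strand, 3.92%. Among all 32851 windows of that length the share was also 3.92%, so the core was as common before receptors as before genes in general. The median GC content of the receptor windows was 62%, and that of all windows was 52.4%.

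Among the monoamine receptors, serotonin receptors moved in both directions. 5 of 14 were members, Htr1d and Htr2c rose, and Htr2a fell, again 60% called. Htr1d, a Gi-coupled receptor, had a level of 0.72 and 0.43 in WT and 1.84 and 2.94 in SmoM2. This was the largest fold among the receptors that rose, with the authors' deposited table giving 1.54 for the log2 fold change and 0.00216 for the adjusted p, and it rests on low levels: the log2 difference of 1.09 ± 0.26 (SE, limma) was 1.88 with a pseudocount of 0.1 and 0.40 with a pseudocount of 5. Htr1d lies on chromosome 4 from 136423524 to 136444398 in GRCm38 and has 1 coding exon. Htr2c, a Gq-coupled receptor that choroid plexus expresses at high level and many neurons also express, had a level of 19.28 and 13.69 in WT and 24.26 and 27.3 in SmoM2 (adjusted p = 5.54e-05, authors' deposited table). Htr2c was higher in both SmoM2 samples. All 7 choroid plexus markers with a row had a log2 fold change below 0 and 5 of them fell. The part of these markers in the value of Htr2c was not tested. The log2 difference of Htr2c, 0.63 ± 0.18 (SE, limma), was 0.40 without WT replicate 2.

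Htr2a, the Gq-coupled serotonin receptor of cortical pyramidal cells, had a level of 6.95 and 9.02 in WT and 6.26 and 4.84 in SmoM2 (adjusted p = 0.00165, authors' deposited table), and the groups did not overlap. Its log2 difference of -0.45 ± 0.20 (SE, limma) was -0.30 without SmoM2 replicate 2, -0.29 without WT replicate 2 and -0.30 with a pseudocount of 5. Htr7, a Gs-coupled receptor, had a level of 5.49 and 6.91 in WT and 8.72 and 8.73 in SmoM2 and did not pass (adjusted p = 0.300, authors' deposited table). The 3 excitatory cortical neuron markers with a row had summed levels of 171 and 185 in WT and 148 and 154 in SmoM2, with none at 0; Neurod6 fell and Cux2 rose. The part of these markers in the value of Htr2a was not tested.

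Of 9 adrenergic receptors 2 had a row, and Adra2c rose, or 50% called beside 38.3% of listed genes. Adra2c, a Gi-coupled receptor for noradrenaline, had a level of 8.17 and 6.2 in WT and 10.67 and 12.59 in SmoM2 (adjusted p = 0.00384, authors' deposited table). Its groups did not overlap, and the log2 difference was 0.63 ± 0.18 (SE, limma). Adra1b, a Gq-coupled receptor, had overlapping groups, with levels of 17.45 and 26.46 in WT and 18.18 and 18.08 in SmoM2, and did not pass. Chrm4, a Gi-coupled muscarinic receptor abundant in striatum, was the muscarinic receptor with a row, at 17.3 and 16.88 in WT and 20.86 and 27.12 in SmoM2, and did not pass (adjusted p = 0.235, authors' deposited table). None of the 5 dopamine receptors had a row, and they were not analysed here.

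Adora2a and Gpr6, Gs-coupled receptors of striatal projection neurons of the indirect pathway, both rose by the authors' test, and the libraries of one group differed widely. Adora2a, a receptor for adenosine, had a level of 28.09 and 12.92 in WT and 17.98 and 51.62 in SmoM2. WT replicate 1 thus lay above SmoM2 replicate 1, the groups overlapped, and the authors' deposited table has 0.000369 as its adjusted p. The log2 difference of 0.65 ± 0.54 (SE, limma) became -0.084 without SmoM2 replicate 2 and 0.12 without WT replicate 2, and it was 1.39 without SmoM2 replicate 1 and 1.18 without WT replicate 1. Gpr6 had a level of 12.79 and 7.38 in WT and 14.44 and 19.25 in SmoM2 (adjusted p = 0.0143, authors' deposited table). Its groups did not overlap, and its log2 difference of 0.72 ± 0.27 (SE, limma) was 1.08 without WT replicate 1 and 0.36 without WT replicate 2.

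The striatal markers with a row were Penk, Gng7, Adcy5 and Foxp1. Penk, the proenkephalin gene of the same neurons, had a level of 145.86 and 61.87 in WT and 108.91 and 208.73 in SmoM2. The samples of Penk stood in the order of Adora2a: WT replicate 2 was lowest, then SmoM2 replicate 1, WT replicate 1 and SmoM2 replicate 2. Gng7, at 207.21 and 133.78 in WT and 173 and 244.13 in SmoM2, had this order too. Adcy5, which encodes the striatal adenylyl cyclase, had a level of 40.83 and 31.31 in WT and 47.67 and 58.68 in SmoM2. Its order differed: WT replicate 2 was lowest, then WT replicate 1, SmoM2 replicate 1 and SmoM2 replicate 2. Gpr6 and Chrm4 had the order of Adcy5 and not that of Adora2a. Foxp1, which cortical neurons also express, fell, and its order of samples was neither of these. Likeness of order over so few samples was not tested. No striatal marker with a row was listed at 0, and the part of striatal RNA in the values of Adora2a and Gpr6 was not tested.

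**Figure D3:**
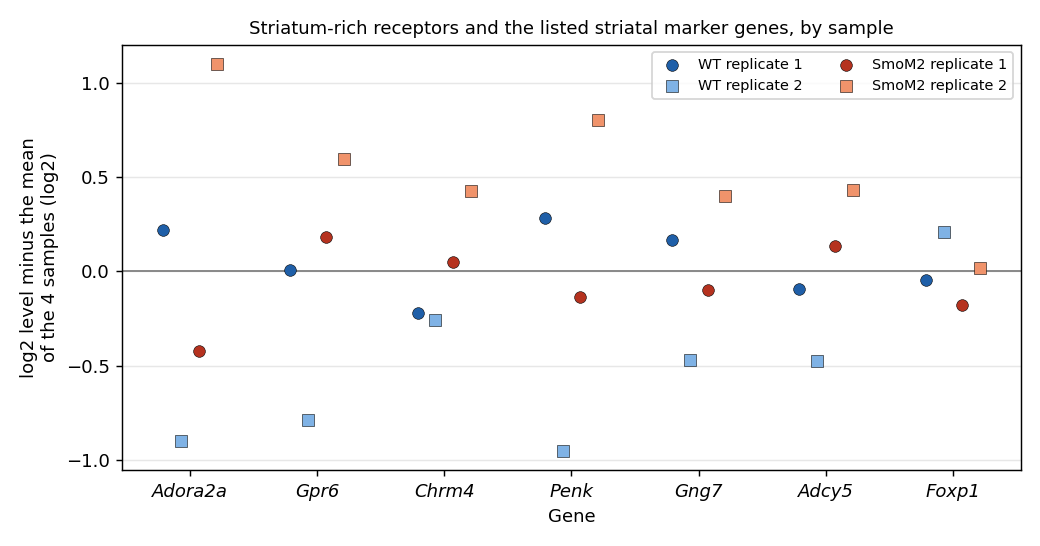
log2 level of each sample minus the mean of the 4 samples (vertical axis, log2) for 3 receptors of striatal neurons and the 4 striatal markers with a row (horizontal axis); each point is 1 sample. For Adora2a, Penk and Gng7 the order of samples is the same, with WT replicate 2 lowest and SmoM2 replicate 2 highest and the groups overlapping. For Gpr6, Chrm4 and Adcy5 both SmoM2 samples lie above both WT samples.

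Of 12 adenosine and nucleotide receptors 3 were members, and Adora2a rose, or 33.3% called beside 38.3% of listed genes. P2ry6, a microglial receptor for uridine diphosphate, was the nucleotide receptor of highest level after Adora2a in its group. It had a level of 2.05 and 2.72 in WT and 4.34 and 4.07 in SmoM2 and did not pass (adjusted p = 0.118, authors' deposited table). Of 10 microglial markers 6 had a row, with summed levels of 307 and 310 in WT and 420 and 388 in SmoM2 and none at 0; C1qb and C1qc rose and P2ry12 fell. Their part in the value of P2ry6 was not tested.

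Of 30 peptide receptors outside the opioid group 7 had a row, Ntsr1 and Crhr1 rose, and none fell. That is 28.6% called, below the 38.3% of listed genes, and 6 of the 7 had a log2 fold change above 0, beside 53% of listed genes. Ntsr1, the neurotensin receptor known from layer 6 of cortex and from some interneurons, had a level of 5.62 and 5.77 in WT and 11.15 and 10.29 in SmoM2. Replicates lay close together in each group, and the log2 difference was 0.81 ± 0.15 (SE, limma), and the authors' deposited table has 7.34e-06 as its adjusted p. Crhr1, the receptor for corticotropin-releasing hormone, had a level of 19.67 and 22.06 in WT and 28.83 and 29 in SmoM2 (adjusted p = 0.0388, authors' deposited table), an increase of 0.45 ± 0.11 on the log2 scale (SE, limma). Of 7 inhibitory neuron markers 4 had a row, with summed levels of 747 and 666 in WT and 830 and 968 in SmoM2 and none at 0. Sst made up most of these sums, at 622.61 and 533.9 in WT and 708.63 and 816.36 in SmoM2. Slc32a1 and Sst rose, and Pvalb and Vip fell. The part of these markers in the values of Ntsr1 and the other peptide receptors was not tested. Sstr1, a Gi-coupled somatostatin receptor, had a level of 25.81 and 28.65 in WT and 36.11 and 35.34 in SmoM2 and did not pass (adjusted p = 0.220, authors' deposited table). Both opioid-like receptors with a row were higher without passing: Oprl1, the nociceptin receptor, had a level of 36.51 and 40.84 in WT and 41.54 and 50.85 in SmoM2.

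Adhesion receptors, which have long extracellular parts that bind matrix and neighbouring cells, had 9 of 27 members in the table. Adgrb1, Adgrg1 and Adgra2 rose and none fell. A log2 fold change above 0 was found for 8 of the 9, or 88.9%, beside 53% of listed genes. The exception was Adgrl4, whose groups overlapped and which is named after its values were seen. The share called was 33.3%, beside 38.3% of listed genes. Adgrb1, a phagocytic receptor of astrocytes and a synaptic protein of neurons, was the receptor of highest level, at 145.86 and 165.04 in WT and 220.15 and 212.87 in SmoM2. The log2 difference was 0.48 ± 0.09 (SE, limma), and the authors' deposited table has 0.00106 as its adjusted p. Of 8 astrocyte markers 5 had a row, with summed levels of 1402 and 1282 in WT and 1276 and 1191 in SmoM2 and none at 0. Aldoc was the largest part of these sums, at 773.39 and 642.08 in WT and 617.81 and 622.63 in SmoM2. Gfap and Aqp4 rose and Slc1a2 fell.

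Adgrg1, also known as Gpr56, keeps oligodendrocyte precursors dividing and is also expressed by neural progenitors and microglia. It had a level of 60.01 and 56.69 in WT and 85.15 and 79.49 in SmoM2, higher by 0.49 ± 0.09 on the log2 scale (SE, limma), and the authors' deposited table has 0.00332 as its adjusted p. Of 6 oligodendrocyte precursor markers 3 had a row, all 3 were higher, and Cspg4 and Ptprz1 rose; their summed level was 90.1 and 93.1 in WT and 126 and 114 in SmoM2, with none at 0. The part of precursor or microglial markers in the value of Adgrg1 was not tested. Adgrg1 lies on chromosome 8 from 94974751 to 95014217 in GRCm38.

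Adgra2, also known as Gpr124, acts in brain endothelium as a co-receptor for Wnt7 ligands. It had a level of 3.58 and 4.06 in WT and 8.95 and 5.3 in SmoM2 (adjusted p = 1.38e-05, authors' deposited table), so it was highest in SmoM2 replicate 1. Its log2 difference of 0.72 ± 0.25 (SE, limma) was 0.39 without SmoM2 replicate 1 and 0.44 with a pseudocount of 5. Of 8 endothelial markers 6 had a row, with summed levels of 261 and 220 in WT and 271 and 191 in SmoM2; Cldn5, Cdh5 and Kdr rose, and Ly6c1 and Slco1a4 fell. Of 9 mural markers 5 had a row, with summed levels of 72.7 and 55.9 in WT and 136 and 113 in SmoM2. Vtn made up most of these sums, at 55.86 and 36.27 in WT and 102.99 and 86.42 in SmoM2. Vtn, Acta2 and Notch3 rose, while Pdgfrb and Myh11 had overlapping groups and did not pass. All 8 meningeal fibroblast markers with a row rose. Col1a1, Col1a2, Col3a1, Slc6a13 and Foxc1 were highest in SmoM2 replicate 1, and Ptgds, Dcn and Aldh1a2 in SmoM2 replicate 2. No endothelial, mural or meningeal fibroblast marker with a row was listed at 0, and their part in the value of Adgra2 was not tested. Adgrb2, a relative of Adgrb1, had a level of 136.82 and 147.29 in WT and 170.89 and 189.01 in SmoM2 and missed the threshold (adjusted p = 0.0532, authors' deposited table).

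The receptors named by a Gpr number are mostly orphans, with no ligand generally agreed. 14 such genes met the level minimum, the pseudogene Gpr137b-ps among them; GENCODE M21 holds 73 protein-coding genes so named. Gpr153, Gpr12, Gpr101 and, as described above, Gpr6 rose, and Gpr158 and Gpr22 fell, which is 42.9% called beside 38.3% of listed genes. Gpr153 had a level of 11.03 and 12.98 in WT and 24.25 and 19.9 in SmoM2, or 12.005 ± 1.38 and 22.1 ± 3.08 (mean ± SD, n = 2 each). Its adjusted p of 7.04e-09 was the smallest among the 48 receptors by the authors' deposited table, with a log2 difference of 0.82 ± 0.16 (SE, limma). Gpr153 lies on chromosome 4 from 152274232 to 152285337 in GRCm38.

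Gpr12, a relative of Gpr6 that raises cyclic AMP without added ligand, had a level of 17.64 and 16.83 in WT and 24.36 and 35.56 in SmoM2 (adjusted p = 0.0258, authors' deposited table). Its log2 difference of 0.74 ± 0.19 (SE, limma) was 0.48 without SmoM2 replicate 2. In that library Gpr6, the summed striatal markers and the summed inhibitory neuron markers were highest too. The part of either set of markers in the value of Gpr12 was not tested. Gpr101, a Gs-coupled orphan on the X chromosome, had a level of 1.68 and 1.28 in WT and 2.87 and 3.64 in SmoM2 (adjusted p = 0.000179, authors' deposited table). Its log2 difference of 0.78 ± 0.22 (SE, limma) was 0.35 with a pseudocount of 5. For these receptors, as for Gpr153, the groups did not overlap.

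Gpr158, a large receptor that binds RGS proteins at synapses, had a level of 33.34 and 38.59 in WT and 27.76 and 32.5 in SmoM2. The groups were separated by less than 1 unit, and the log2 difference of -0.25 ± 0.13 (SE, limma) was -0.14 without SmoM2 replicate 1 and -0.15 without WT replicate 2. Its adjusted p was 0.0451 by the authors' deposited table. Gpr22, an orphan of brain and heart, had a level of 15.3 and 23.33 in WT and 16.15 and 13.85 in SmoM2 (adjusted p = 0.00792, authors' deposited table). Its groups overlapped, and its log2 difference of -0.32 ± 0.21 (SE, limma) was -0.61 without WT replicate 1 and -0.03 without WT replicate 2. Gpr162, of highest level among the Gpr-numbered genes that did not pass, had a level of 126.08 and 137.67 in WT and 160.14 and 161.99 in SmoM2 (adjusted p = 0.310, authors' deposited table).

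**Figure D4:**
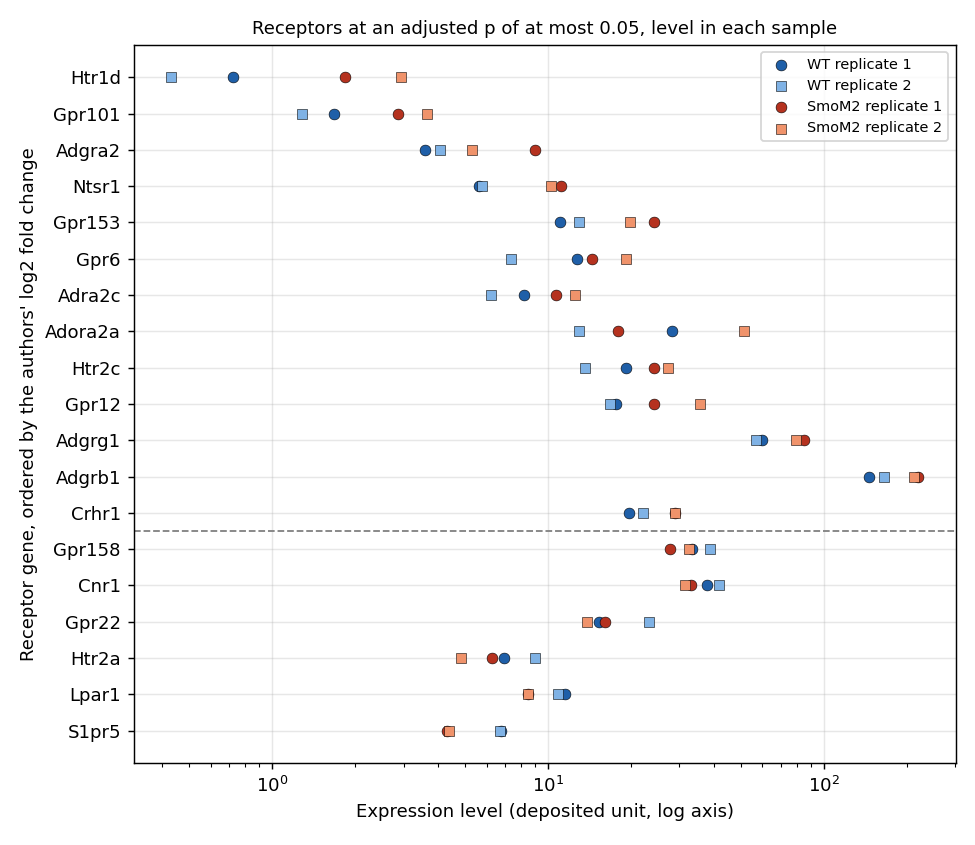
Level of the 19 receptors with an adjusted p of at most 0.05 in each of the 4 samples (horizontal axis, deposited unit, log scale), ordered by the authors' log2 fold change (vertical axis); each point is 1 sample, and the dashed line parts the 13 that rose from the 6 that fell. The colours of the groups mix for Adora2a and Gpr22 and are apart for the other 17.

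The 29 receptors that did not pass comprised 23 that were higher and 6 that were lower. Of all 5041 listed genes, passed or not, 53% were higher. The groups did not overlap for 25 of the 29 receptors, 86.2%, beside 80.8% of the 3108 listed genes that did not pass. The median level of the 29 receptors was 7.74, against 17.0 for the 19 that passed. The 48 receptors lay on 18 chromosomes. Of those with an annotated main coding transcript, 19 had 1 coding exon and 28 had several; a single coding exon is common among receptors of this kind. The median log2 fold change in the authors' deposited table was 0.50 for the first and 0.42 for the second. Of the 19, 8 passed, and of the 28, 11 passed, beside 38.3% of listed genes.

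Genes that act directly behind the receptors also moved in both directions. Of 28 G protein subunit genes 13 had a row, 3 rose and none fell. Gnai2, a Gi subunit, had a level of 144.57 and 135.31 in WT and 204.9 and 193.43 in SmoM2. Gnb2, a beta subunit, had a level of 542.3 and 508.58 in WT and 710.24 and 729.53 in SmoM2. Gng4, a gamma subunit, had a level of 75.23 and 78.65 in WT and 133.95 and 108.7 in SmoM2. For each of the 3 both SmoM2 samples lay above both WT samples. Of 18 RGS genes, whose products switch G proteins off, 6 had a row; Rgs3 and Rgs12 rose, and Rgs4 and Rgs20 fell. Rgs4, which acts on Gi and Gq in cortical neurons, had a level of 401.41 and 442.8 in WT and 278.9 and 314.77 in SmoM2.

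Of 16 genes of adenylyl cyclases and protein kinase A 5 had a row; Adcy4, Adcy5 and Adcy8 rose and none fell. Of 14 genes of phospholipase C, diacylglycerol and inositol trisphosphate signalling 5 had a row; Plcb4 and Itpr1 fell and none rose. Itpr1, the calcium release channel opened by inositol trisphosphate, had a level of 31.4 and 35 in WT and 25.36 and 25.95 in SmoM2. Of 19 phosphodiesterase genes 4 had a row and Pde1a fell, and of 10 genes of receptor kinases and arrestins Grk6 had a row and did not pass. Of 31 genes that make or remove receptor ligands 11 had a row; Th, Ache and Sphk1 rose, and Enpp2 and Ptgs2 fell. Th, which encodes tyrosine hydroxylase and is also an olfactory bulb marker, had a level of 2.97 and 3.43 in WT and 10.28 and 2.65 in SmoM2, so it was high in SmoM2 replicate 1 alone. The share called was 23.1% for G protein subunits, 66.7% for RGS genes and 60% for cyclases and protein kinase A. It was 40% for the phospholipase C list, 25% for phosphodiesterases, 0% for receptor kinases and arrestins and 45.5% for the ligand genes. Among listed genes it was 38.3%.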

How the data were processed

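Illumina TruSeq libraries were made from 1 ug of total RNA, per the labels' protocols. RSEM, DESeq2 and GRCm38.p6 are named without version or role, per the submitters' processing notes. The deposited table gives a signal per sample, an expression level with 2 decimals; it also gives the authors' group means, fold change as a ratio, log2 fold change, p-value and adjusted p-value. Columns were tied to samples by the series text. The authors' adjusted p implies 57010 tests. Rows were selected by p, so no set test was run.

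From the levels, group means and SDs (n = 2) were computed, and limma 3.58.1 (R 4.3.3, mean-variance trend) was fitted to log2(level + 1) for the 5041 rows with a mean level of at least 0.5. These differences understate the change of low genes. They also differ from the authors' log2 fold changes, to which the authors' adjusted p belongs. The authors' value was 0.50 for Gpr12, beside 0.74 by limma, and -0.59 for Lpar1, beside -0.38 by limma. The limma adjusted p (Benjamini-Hochberg) was taken over 57010 tests. The fitting code was checked on simulated data with known changes, without the adjustment over 57010 tests. That checks the code and not the calls made here. Genes were located in GENCODE M21 (GRCm38) by identifier, and promoter windows come from RefSeq. Members and gene lists were chosen with earlier results of these data known. Named were the 17 called receptors without overlap and, per family, the one of highest level among called receptors with overlap and among those not called; others are said to be named after their values were seen. Alternatives were other pseudocounts, level minimums and scalings, a stricter threshold, a replicate block and leaving out each library. An exact permutation test of 2 against 2 samples cannot go below p = 0.333 (two-sided).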

Additional observations from a re-analysis of the deposited data

How the results depend on the processing

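By limma, with adjustment over 57010 tests, 0 receptors passed in either direction, also with any 1 library left out (an alternative chosen after seeing the data); limma called 1 of all 5041 rows, so it says little about receptors. At an unadjusted limma p under 0.05 there were 31 receptors, 27 higher and 4 lower, or 64.6%, beside 54.4% of the rows. With the authors' adjusted p of at most 0.01, 10 receptors rose and 3 fell. A minimum level of 1 or none left 13 and 6. The shares of listed genes called at these settings were not computed, so the counts say nothing particular to receptors. The median limma log2 difference of the receptors was 0.45, with a spread of 0.05 (SD over pairs of libraries). It moved to 0.30 with a pseudocount of 5, 0.30 with quantile normalization and 0.34 with equal medians, and ran from 0.38 to 0.44 with 1 library left out. The median of all rows was 0.26, and 0.13 and 0.16 under those scalings; no receptor changed direction under either. Adora2a ran from -0.084 (without SmoM2 replicate 2) to 1.39 (without SmoM2 replicate 1), and Adra1b, at -0.23 with all libraries, from -0.52 (without WT replicate 1) to 0.052 (without WT replicate 2). With the replicate block the median stayed at 0.45, no receptor changed sign, and limma called 20 rows in place of 1. The sources do not say that replicate numbers pair animals, so the numbers were not taken as pairs. Deviations of same-numbered samples had a correlation of -0.08 over genes, which with 2 samples per group cannot show whether they are paired. With a pseudocount of 5, the differences of 5 called receptors moved by over 1.5 times (Adgra2, Gpr101, Htr1d, Htr2a and S1pr5, the last from -0.53 to -0.33). The cause of these changes was not tested. Depth is unknown, so counting error cannot be given.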
